A study of Homo sapiens with 12 samples.

Results

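Cyclin-dependent kinase inhibitors are small proteins that bind the kinases of the cell cycle or their complexes with cyclins and hold back entry into S phase. The genes described are the CIP/KIP members CDKN1A (p21), CDKN1B (p27) and CDKN1C (p57) and the INK4 members CDKN2A (p16, and ARF from another reading frame), CDKN2B (p15) and CDKN2D (p19). They were chosen by name: every probe set of the array that names only that gene, under its current or a former symbol, was taken singly and as the mean per gene. Of 7 genes listed, 6 had a value, and CDKN2C (p18) was not analysed here. The 6 genes had 14 of 54675 probe sets and were 6 of 19775 genes measured. CDKN1C had 5 probe sets, CDKN2A had 3, CDKN2B and CDKN2D had 2 each, and CDKN1A and CDKN1B had 1 each.

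RNA of Imr90 cells (IMR-90), human lung fibroblasts that divide a limited number of times in culture, was hybridised to 12 Affymetrix arrays in 4 groups of 3 biological replicates. At 20% oxygen there were young cells at population doubling 30 and senescent cells at population doubling 48. At 3% oxygen there were young cells, likewise at population doubling 30, and old cells that were nonsenescent at population doubling 53. All were of this 1 cell line, untreated apart from the oxygen level. The oxygen levels were kept in separate incubators, so oxygen and incubator cannot be told apart, and the senescent and old cells differed in population doubling as well as in oxygen. Beyond the word biological, nothing in the labels ties the replicates to separate cultures, and the p-values measure the spread between these arrays.

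Signals are on a log2 scale on which every probe set has its median over the 12 arrays at 0, which shows differences between groups but no absolute level. A gene was called where limma gave an adjusted p under 0.05. A value after ± is the standard error of a log2 change, or the SD where so named, and n = 3 arrays in each group. The array measures RNA per sample, so a change in the share of cells that express a gene and a change in RNA per cell cannot be told apart.

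CIP/KIP proteins bind complexes of cyclins with CDK2 and related kinases, whereas INK4 proteins bind CDK4 and CDK6 alone and keep them from D-type cyclins. Both routes leave the retinoblastoma protein unphosphorylated and its partners, the E2F factors, repressed. In cultured human fibroblasts p21 is known as the inhibitor induced by p53, and p16 as the one that accumulates as cells approach senescence. CDKN2A and CDKN2B lie side by side on chromosome 9.

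The 250 bases upstream of the starts of CDKN1A, CDKN2B and CDKN2A are shown because CDKN1A was the member most changed between senescent and young cells at 20% oxygen, and the neighbours CDKN2B and CDKN2A were both lower at 3% oxygen. Sequences are those of RefSeq on GRCh38.p14, each read in the direction of transcription. Capitals mark GC boxes, matched as GGGCGG on either strand with overlaps counted.
CDKN1A, chr6:36678464-36678713, plus strand: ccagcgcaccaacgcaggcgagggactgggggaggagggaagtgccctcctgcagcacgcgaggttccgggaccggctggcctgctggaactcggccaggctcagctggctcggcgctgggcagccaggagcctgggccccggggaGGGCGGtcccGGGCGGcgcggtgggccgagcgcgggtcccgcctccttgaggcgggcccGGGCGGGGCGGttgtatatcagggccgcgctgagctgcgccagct
CDKN2B, chr9:22009306-22009555, minus strand: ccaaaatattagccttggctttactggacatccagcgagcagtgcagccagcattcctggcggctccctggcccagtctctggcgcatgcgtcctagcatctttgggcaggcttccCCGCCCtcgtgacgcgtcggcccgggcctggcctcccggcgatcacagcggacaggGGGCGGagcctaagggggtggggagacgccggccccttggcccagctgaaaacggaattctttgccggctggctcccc
CDKN2A upstream start, chr9:21995325-21995574, minus strand: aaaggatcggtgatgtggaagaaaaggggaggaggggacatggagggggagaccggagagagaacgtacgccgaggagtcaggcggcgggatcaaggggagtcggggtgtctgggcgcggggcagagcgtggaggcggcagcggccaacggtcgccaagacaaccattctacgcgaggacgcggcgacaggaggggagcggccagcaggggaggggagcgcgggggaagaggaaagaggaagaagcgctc
CDKN2A downstream start, chr9:21974858-21975107, minus strand: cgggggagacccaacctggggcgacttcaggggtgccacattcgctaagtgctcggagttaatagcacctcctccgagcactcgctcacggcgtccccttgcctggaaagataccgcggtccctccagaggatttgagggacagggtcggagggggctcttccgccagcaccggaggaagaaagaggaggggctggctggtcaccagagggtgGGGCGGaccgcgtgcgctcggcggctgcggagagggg
The CDKN1A window held 4 GC boxes and the CDKN2B window 2, while the upstream CDKN2A window held 0 and the downstream one 1. Of 35116 windows of this length, 42.6% held at least 1. The CDKN2A starts lie 20467 bases apart, and the CDKN2B start lies 13981 bases from the nearer one. The E-box CACGTG was in none of these 4 windows and in 6.34% of all. These matches describe letters only.

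Between senescent and young cells at 20% oxygen, 3 of the 6 genes were called: CDKN1A and CDKN2A were higher and CDKN2B was lower. Over all genes, 12.5% were called in this comparison. Between old and young cells at 3% oxygen limma called 0 of the 6, against 1.74% of all genes; 3 of the 6 had an unadjusted p under 0.05. Between young cells at 3% and 20% oxygen, CDKN2A and CDKN2B were lower and CDKN1B higher at 3%, 3 of 6 against 11.8% of all genes. Compared with senescent cells at 20%, old cells at 3% oxygen had less CDKN1A, CDKN2A and CDKN2B signal, again 3 of 6, against 11% of all genes called and 4.41% called lower. Of the remaining pairs of groups, senescent cells had more CDKN1A, CDKN2A and CDKN2B signal than young cells at 3% (3 of 6 against 10.9% of all genes called and 5.2% called higher), and old cells had more CDKN1B and less CDKN2A and CDKN2B signal than young cells at 20% (3 of 6 against 13.3%). These comparisons share groups, so their counts are not independent of each other.

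Across the 6 genes the median log2 change was 0.24 from young to senescent at 20% oxygen (0.04 over all genes) and 0.30 from young to old at 3% (0.05 over all genes). It was -0.27 between the young groups (-0.03 over all genes) and -0.54 between old and senescent cells (-0.02 over all genes). A median of so mixed a set says little about any member, and the genes are described singly.

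**Figure D1:**
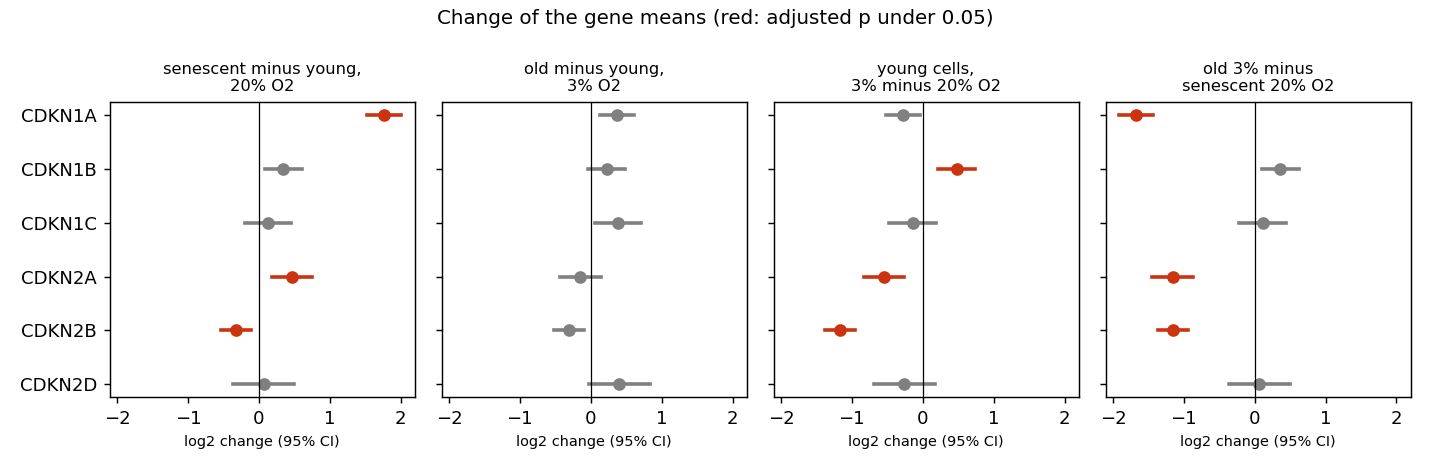
Log2 change of the gene mean (horizontal axis, with its 95% confidence interval) for the 6 inhibitor genes (rows) in 4 comparisons (panels), with n = 3 arrays per group; red marks an adjusted p under 0.05. CDKN1A stands at 1.76 in the first panel and at -1.67 in the last, and no gene is red in the panel of old minus young cells at 3% oxygen.

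CDKN1A encodes p21, the inhibitor that p53 induces. Its probe set 202284_s_at stood at 1.64, 1.73 and 1.76 on the senescent arrays. It stood at 0.01, -0.01 and -0.16 in young cells at 20% oxygen, at -0.19, -0.49 and -0.30 in young cells at 3%, and at 0.22, 0.02 and -0.12 in old cells at 3%. The senescent arrays were thus far above the other 9, which lay within a narrow band, and old and young cells at 20% overlapped.

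Senescent cells had 3.39-fold more signal than young cells at 20% oxygen (1.76 ± 0.11, adjusted p = 6.17e-07) and 4.1-fold more than young cells at 3% (2.04 ± 0.11). With more population doublings behind them, old cells at 3% were 3.18-fold below senescent cells (-1.67 ± 0.11, adjusted p = 4.86e-07). In order from low to high the groups were young at 3%, young at 20%, old at 3% and senescent, and of the neighbours in this order only old and senescent cells differed by the test.

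At 3% oxygen the rise of CDKN1A from young to old cells was small. All 3 old arrays were above all 3 young ones, by 0.37 ± 0.11 (1.29-fold), but the adjusted p was 0.156. Old cells at 3% were 0.09 ± 0.11 above young cells at 20% (95% interval -0.15 to 0.33, adjusted p = 0.79). The step from young to senescent cells at 20% exceeded the step from young to old cells at 3% by 1.39 ± 0.16 (adjusted p = 0.000161), where 6.44% of all genes were called. The interaction was called under every alternative run, with adjusted p between 1.33e-05 and 0.000799.

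**Figure D2:**
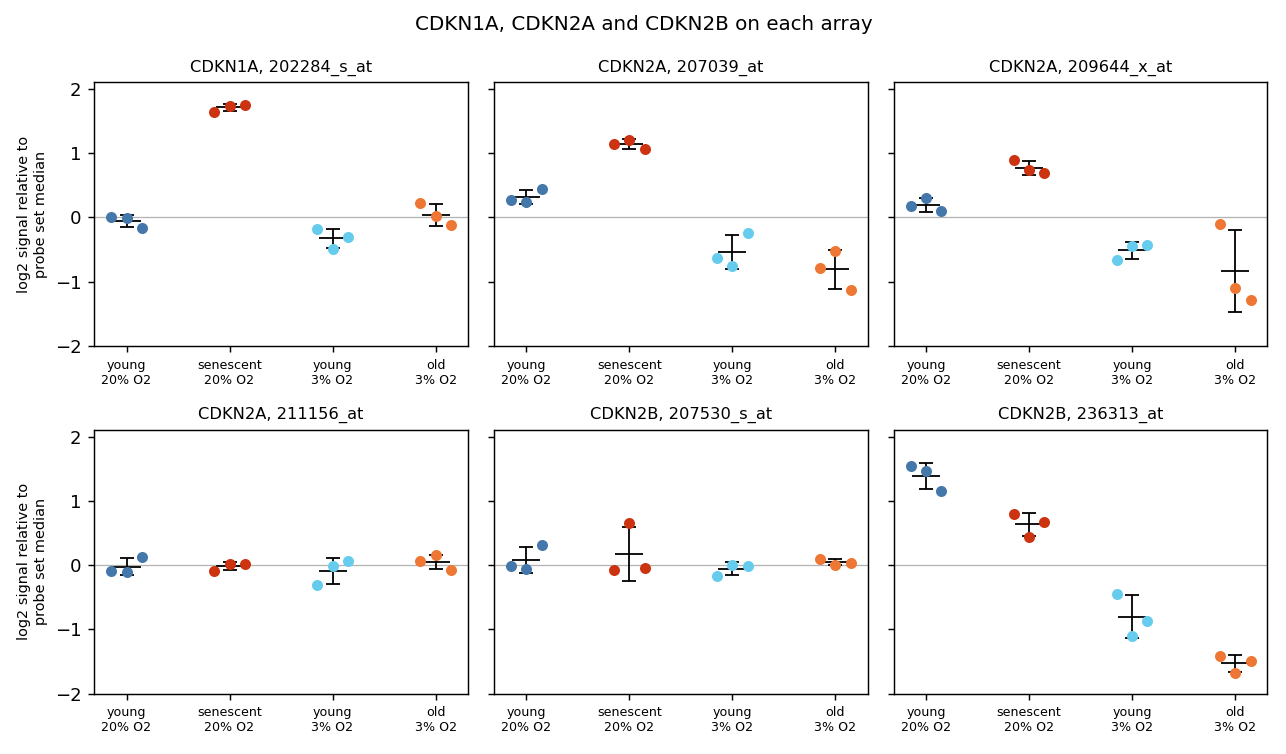
Log2 signal relative to the probe set's median (vertical axis) on each array (points) for the 6 probe sets of CDKN1A, CDKN2A and CDKN2B, by group (horizontal axis), with the mean and SD of 3 arrays. CDKN1A is high in senescent cells alone, 2 of the CDKN2A probe sets and CDKN2B 236313_at are low in both groups at 3% oxygen, and 211156_at and 207530_s_at are nearly level.

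CDKN2A encodes p16, the INK4 inhibitor of CDK4 and CDK6, and the unrelated protein ARF, which stabilises p53 by binding MDM2. Its probe sets did not move together, so the gene mean averages unlike patterns. Whether a given probe set reads the p16 or the ARF transcript was not determined here. Probe set 207039_at stood at 1.14, 1.21 and 1.06 on the senescent arrays and at 0.28, 0.25 and 0.45 in young cells at 20% oxygen. At 3% it stood at -0.63, -0.75 and -0.25 in young and at -0.78, -0.52 and -1.12 in old cells. The senescent arrays did not overlap with any other group, nor did the young arrays at 20%, whereas the groups at 3% overlapped.

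On this probe set senescent cells were 1.76-fold above young cells at 20% (0.81 ± 0.16, adjusted p = 0.00662). Young cells at 3% were 1.82-fold below young cells at 20% (-0.87 ± 0.16, adjusted p = 0.00479), and old cells at 3% were 3.84-fold below senescent cells (-1.94 ± 0.16, adjusted p = 8.68e-06). At 3% the change from young to old cells was -0.26 ± 0.16 (95% interval -0.62 to 0.09, adjusted p = 0.475). Over all probe sets, 9.46% were called in senescent against young cells, 8.55% between the young groups, 7.73% between old and senescent cells and 0.941% between old and young cells at 3%. The difference between the steps at 20% and at 3% was 1.08 ± 0.23 (adjusted p = 0.0181, with 4.84% of all probe sets called), and it was no longer called without young replicate 1 at 20% (adjusted p = 0.0546).

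Probe set 209644_x_at gave the same order of groups. It stood at 0.89, 0.74 and 0.69 in senescent cells, at 0.18, 0.30 and 0.10 in young cells at 20%, at -0.66, -0.45 and -0.42 in young cells at 3%, and at -0.10, -1.10 and -1.28 in old cells. Old replicate 1 was apart from the other old arrays and above all young arrays at 3%. The suffix _x_at marks probes that can match other transcripts.

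With this wider spread, 209644_x_at was called lower in old than in senescent cells (3.03-fold, -1.60 ± 0.24, adjusted p = 0.000857) but not higher in senescent than young cells at 20% (0.58 ± 0.24, adjusted p = 0.199), nor lower in young cells at 3% than at 20% (-0.70 ± 0.24, adjusted p = 0.104). Without old replicate 1 both were called (adjusted p = 0.00796 and 0.00256). The third probe set, 211156_at, was level: its group means ranged over 0.14, and limma called 0 of its 6 pairwise comparisons, of which 0 had an unadjusted p under 0.05. On all 12 arrays it lay between -0.32 and 0.15. The difference between the young groups was thus called on 1 of the 3 CDKN2A probe sets.

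The mean of the 3 CDKN2A probe sets was 0.16 ± 0.05 in young and 0.63 ± 0.04 in senescent cells at 20% oxygen (SD). It was -0.38 ± 0.17 in young and -0.53 ± 0.28 in old cells at 3% (SD). Young cells at 3% were below young cells at 20% by 0.54 on the log2 scale (SE 0.13, adjusted p = 0.0157), a call that ended without young replicate 3 at 20% or young replicate 1 at 3%, with an adjusted p of up to 0.0649. Old cells were 2.23-fold below senescent cells (adjusted p = 6.17e-05) and 1.61-fold below young cells at 20% (adjusted p = 0.00301). The rise in senescent over young cells at 20% was 0.47 ± 0.13 (adjusted p = 0.0348). It was not called in any of the fits that left out 1 of the 6 arrays compared, where the adjusted p reached 0.119. Nor was it called without the _x_at probe set (0.055) or with the replicate number as a block over all groups (0.0658).

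CDKN2B encodes p15, which inhibits the same kinases as p16 and is known as a target of TGF-beta signalling. Its probe set 236313_at stood at 1.54, 1.47 and 1.15 in young and at 0.80, 0.44 and 0.67 in senescent cells at 20% oxygen. At 3% it stood at -0.44, -1.10 and -0.87 in young and at -1.42, -1.68 and -1.49 in old cells. The 4 groups did not overlap, and they fell in the order young at 20%, senescent, young at 3% and old.

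Young cells at 3% oxygen were 4.56-fold below young cells at 20% on 236313_at (-2.19 ± 0.17, adjusted p = 5.35e-06), and old cells at 3% were 4.47-fold below senescent cells (-2.16 ± 0.17). The lowest and highest groups, old at 3% and young at 20%, were 7.52-fold apart (-2.91 ± 0.17, adjusted p = 3.46e-07). In that comparison 9.7% of all probe sets were called. The direction from young to senescent cells was opposite to that of CDKN1A: senescent cells were 1.68-fold lower (-0.75 ± 0.17, adjusted p = 0.0146). This call was lost without young replicate 1, young replicate 2 or senescent replicate 2, where the change ran from -0.87 to -0.65 over all left-out arrays and the adjusted p reached 0.0741, and after quantile normalization, where the change was -0.44 (adjusted p = 0.392).

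At 3% the same probe set was lower in old than in young cells by a like amount (-0.72 ± 0.17, 1.65-fold), with an adjusted p of 0.094. The steps at the 2 oxygen levels differed by -0.03 ± 0.24 (95% interval -0.56 to 0.50, adjusted p = 0.972). The other probe set, 207530_s_at, was level, with group means of -0.06 to 0.18 and limma called 0 of its comparisons, of which 0 had an unadjusted p under 0.05. Senescent replicate 2 stood apart there at 0.66, while the other 11 arrays lay between -0.17 and 0.31.

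The gene mean of CDKN2B averages a moving and a level probe set and is therefore smaller. It was 0.73 ± 0.03 in young and 0.41 ± 0.13 in senescent cells at 20%, and -0.43 ± 0.12 in young and -0.74 ± 0.09 in old cells at 3% (SD). Young cells at 3% were 2.24-fold below young cells at 20% (adjusted p = 4.56e-06) and old cells 2.22-fold below senescent cells (adjusted p = 4.59e-06). The fall from young to senescent cells (-0.32 ± 0.10, adjusted p = 0.0473) was close to the threshold and was lost in 9 of the 12 fits that left out 1 array, with an adjusted p of up to 0.173. It was also lost after quantile normalization, where it was -0.18 (adjusted p = 0.453), and with these 2 groups fitted alone (adjusted p = 0.0624). The filter on flat genes (adjusted p = 0.0796) and the replicate number as a block over all groups (adjusted p = 0.0723) ended the call as well.

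Cells at 3% also had more RNA of proliferation genes, which was measured beside the lower CDKN2A and CDKN2B signal. The mean of MKI67, TOP2A, CCNB1, BUB1 and AURKA was -0.81 in young and -0.86 in senescent cells at 20%, against 0.68 in young and 0.98 in old cells at 3%. All 5 were called higher at 3% between the young groups and between old and senescent cells. Between senescent and young cells at 20%, 1 of the 5 was called, AURKA, which was lower (-0.76 ± 0.10, adjusted p = 0.000357). The part of these 5 genes in the differences of the inhibitors was not tested.

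CDKN1B encodes p27, a CIP/KIP inhibitor of cyclin E and cyclin A complexes with CDK2 that is regulated largely through its degradation. Probe set 209112_at stood at -0.54, -0.19 and -0.36 in young cells at 20%, at 0.00, 0.00 and -0.05 in senescent cells, at -0.10, 0.35 and 0.11 in young cells at 3%, and at 0.41, 0.29 and 0.33 in old cells. Young cells at 20% were below every other array, and the groups at 3% overlapped with each other. The order of the group means was the reverse of that of CDKN2B.

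Old cells at 3% were 1.63-fold above young cells at 20% (0.71 ± 0.12, adjusted p = 0.00136), and young cells at 3% were 1.4-fold above them (0.48 ± 0.12, adjusted p = 0.0187). The latter call was lost without young replicate 1 or 3 at 20% or young replicate 2 at 3%, with an adjusted p of up to 0.0991. It was also lost with these 2 groups fitted alone (adjusted p = 0.074). Among probe sets it had an adjusted p of 0.0362. There it was lost in 7 of the 12 fits that left out 1 array, with an adjusted p of up to 0.171. Senescent cells were 0.35 ± 0.12 above young cells at 20% (adjusted p = 0.0868). No neighbours in the order young at 20%, senescent, young at 3% and old differed by the test. Old cells were 0.36 ± 0.12 above senescent cells (adjusted p = 0.0844 among genes and 0.141 among probe sets). Among genes this was called with the replicate number as a block in these 2 groups (adjusted p = 0.0274), with array weights (0.0307), with the covariate for RNA quality (0.026) or for an array-wide factor, explained with CDKN1C and CDKN2D (0.0486), and without young replicate 1 or 2 at 3% (0.047 the lower). Among probe sets the same block gave an adjusted p of 0.075 and the RNA quality covariate 0.0496. This block and both covariates were added after the data were seen, so those calls are no separate evidence of a difference.

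CDKN1C encodes p57, the CIP/KIP member that is imprinted and expressed mainly from the maternal copy. Its gene mean stood at -0.12, -0.18 and 0.17 in young and at 0.11, 0.21 and -0.05 in senescent cells at 20%, and at -0.46, -0.07 and -0.03 in young and 0.35, 0.32 and -0.06 in old cells at 3%. All groups overlapped, and none of the 6 pairwise comparisons was called by limma. For 1 of them, old against young cells at 3%, the unadjusted p was under 0.05 (0.39 ± 0.15, adjusted p = 0.29).

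Of its 5 probe sets, 213348_at had a pattern of its own. It stood at -0.22, -0.26 and -0.26 in young cells at 20%, at 0.00, -0.26 and 0.15 in senescent cells, at 0.12, 0.00 and -0.03 in young cells at 3%, and at 0.79, 0.23 and 0.16 in old cells. It was called higher in old cells than in young cells at 20% (1.56-fold, 0.64 ± 0.16, adjusted p = 0.0238), a call lost without any 1 of these young arrays or without old replicate 1, which was far above the others (highest adjusted p = 0.0785). The other 4 probe sets were not called in any pairwise comparison, and had an unadjusted p under 0.05 in 2.

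CDKN2D encodes p19, an INK4 inhibitor whose RNA is known to peak in S phase in cycling cells. Its gene mean stood at -0.02, -0.04 and 0.37 in young and at 0.07, 0.57 and -0.12 in senescent cells at 20%, and at -0.34, -0.03 and -0.11 in young and 0.46, 0.39 and -0.13 in old cells at 3%. Replicates of 1 group differed by more than the group means did. The largest difference, old minus young cells at 3%, was 0.40 ± 0.20 (95% interval -0.03 to 0.83, adjusted p = 0.37), and limma called 0 comparisons of the gene mean or of either probe set, of which 0 had an unadjusted p under 0.05.

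**Figure D3:**
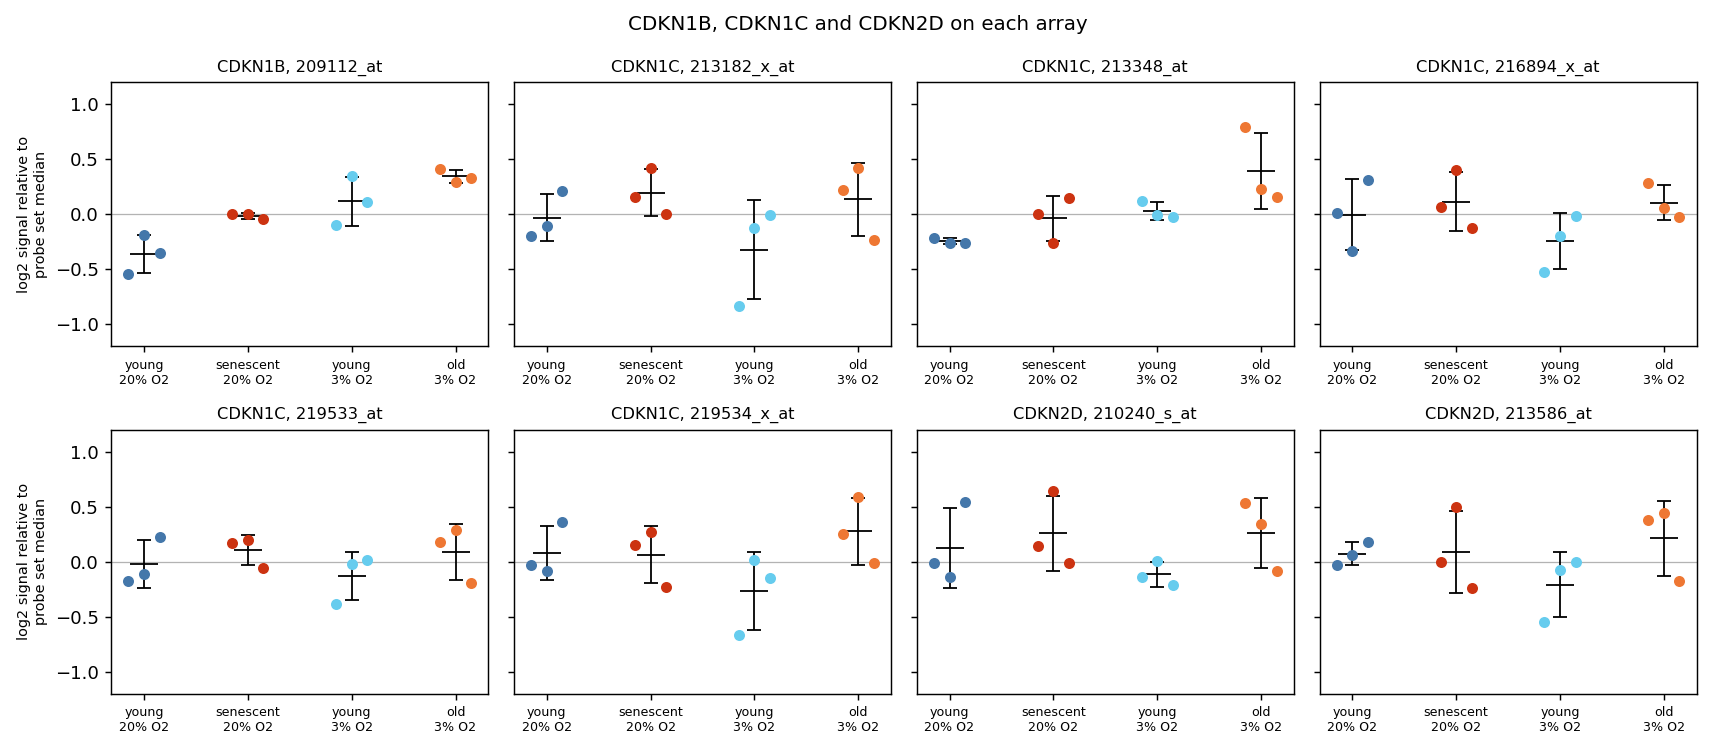
Log2 signal relative to the probe set's median (vertical axis) on each array (points) for the 8 probe sets of CDKN1B, CDKN1C and CDKN2D, by group (horizontal axis), with the mean and SD of 3 arrays. CDKN1B is lowest in young cells at 20% oxygen, and most CDKN1C and CDKN2D probe sets spread within groups about as widely as between them.

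The spread of the CDKN1C and CDKN2D gene means within groups followed a main difference between the arrays of a group. Among probe sets without a gene name, a first principal axis of the deviations from the group means held 48.5% of the variance and gave each array a score, here called the array-wide factor. Deviations of the CDKN1C gene mean from its group means correlated with that score at r = -0.954 and those of CDKN2D at r = -0.95. For CDKN2A r was -0.768, for CDKN1B -0.272, for CDKN2B -0.113 and for CDKN1A 0.013. The low value of CDKN2B comes from averaging probe sets that ran opposite ways: r was -0.718 for the level 207530_s_at and 0.657 for 236313_at, on which the CDKN2B differences rest. For 207039_at of CDKN2A it was -0.716. Of the CDKN1C probe sets, 213348_at did not follow the score (r = 0.099), and the others had r between -0.918 and -0.877. These are descriptions over 12 arrays, each of which gives both values.

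With the array-wide factor as a covariate, chosen after the data were seen, the SE of CDKN2D fell to 0.09 from 0.20 on the log2 scale, and old against young cells at 3% was called for 4 of the 6 genes. CDKN2D was then higher in old cells by 0.40 (adjusted p = 0.0127), CDKN1C by 0.39 (adjusted p = 0.00865) and CDKN1A by 0.37 (adjusted p = 0.0404), and CDKN2B was lower (-0.31, adjusted p = 0.046). The same fit called 2457 of all genes in that comparison, in place of 344. The score was taken from deviations from the group means of these same arrays. It could thus not move a log2 change, and a smaller SE for genes that follow it was built in. These calls are therefore no separate evidence of a difference. What the factor stands for was not tested.

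**Figure D4:**
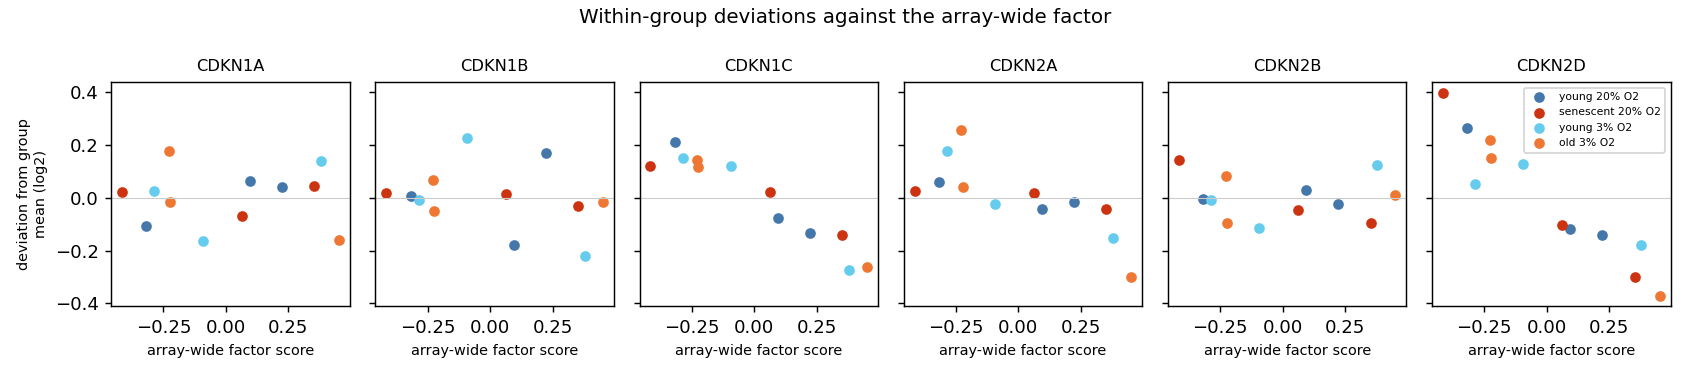
Deviation of each gene mean from its group mean in log2 units (vertical axis) against the array-wide factor score (horizontal axis, no unit) on the 12 arrays (points, coloured by group), 1 panel per gene. CDKN1C and CDKN2D fall steadily as the score rises (r = -0.954 and -0.95), and CDKN1A does not follow it (r = 0.013).

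A measure of RNA quality, the signal at the 3' end less that at the 5' end of the ACTB controls, ranged from -0.22 to 0.71 over the arrays, with young replicate 2 at 3% oxygen highest. Deviations correlated with it at r = 0.651 for CDKN1B and -0.643 for CDKN2B, and between -0.48 and -0.12 for the other genes. Array medians ranged from -0.02 to 0.05. As for the labelled cell type, centred values cannot show whether a marker is absent: the mean of 12 lung fibroblast markers was 0.26 in young cells at 20% and -0.12 to -0.04 in the other groups (single arrays -0.16 to 0.29), and 5 of the 12 were lower in the senescent group than in the young one at 20%. Between the young groups 5 of the 12 were lower at 3% and 1 higher. Of 8 epithelial markers limma called 0 in senescent against young cells at 20%, where 0 had an unadjusted p under 0.05, and 1 between the young groups, KRT19 (-0.92 ± 0.18, adjusted p = 0.00498). Of 5 smooth muscle and pericyte markers, senescent cells had less CNN1 than young ones at 20% (-0.79 ± 0.19, adjusted p = 0.0168), and at 3% young cells had less RGS5 (-0.72 ± 0.14, adjusted p = 0.00324) and more CSPG4 (0.62 ± 0.12, adjusted p = 0.00488) than young cells at 20%. Of 6 endothelial and 6 immune markers limma called 0 in any pair of groups, with 0 to 2 of a list at an unadjusted p under 0.05. The mean of each of these lists other than the fibroblast one on single arrays lay between -0.26 and 0.23, and their part in the results was not tested. Of 5 senescence markers listed, 3 had a value, and all 3 were called in senescent against young cells at 20%. IL6 (-1.31 ± 0.12, adjusted p = 1.64e-05) and LMNB1 (-0.62 ± 0.12, adjusted p = 0.00445) were lower. MMP1 was higher (1.795 ± 0.12, adjusted p = 1e-06).

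Within the family, gene means of CDKN2A and CDKN2B correlated over the 12 arrays at r = 0.804, CDKN1A and CDKN2A at 0.797, and CDKN1C and CDKN2D at 0.897. CDKN1B and CDKN2B ran opposite, at r = -0.868. Limma called differences between groups for CDKN1A, CDKN1B, CDKN2A and CDKN2B, but none between any pair of groups for the gene means of CDKN1C and CDKN2D. All values come from the same arrays, which share the array-wide factor, so these are descriptions with no test.

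Among all other genes, those with the most similar values over the 12 arrays were found by Pearson correlation. For CDKN1A they were KCNMA1 (r = 0.985), a potassium channel, GABARAPL2 (0.984), an autophagy protein, and YPEL5 (0.982). For CDKN2A they were GAS6 (0.973), a ligand of the TAM receptors, MMP24OS (0.97) and FRMD6 (0.962), an upstream part of the Hippo pathway. For CDKN2B they were MSMO1 (0.987), an enzyme of cholesterol synthesis, GLIPR1 (0.984) and RGMB (0.982), a BMP co-receptor.

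The genes nearest to CDKN1B were less close: TMEM123 (r = 0.961), the ubiquitin ligase SIAH1 (0.948) and the nuclear envelope protein SUN2 (0.921). Nearest to CDKN1C were the laminin chain LAMB3 (0.986), ZRANB2-AS1 (0.971) and EFNA4 (0.969). Nearest to CDKN2D were GPR37L1 (0.982), TSSK2 (0.98) and the chemokine CXCL14 (0.978). Deviations of CDKN1C and CDKN2D followed the array-wide factor (r = -0.954 and -0.95). Whether these nearest genes follow it too was not tested. By rank correlation LAMB3 kept the first place for CDKN1C, and MSMO1 shared it for CDKN2B with ACSL1 among others (rho = 0.986). No other gene that was first by Pearson correlation kept its place. KCNMA1, for example, stood at place 24 for CDKN1A (rho = 0.895).

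The kinases and cyclins that these inhibitors bind were measured for 11 of 11 genes. Between senescent and young cells at 20% oxygen, 2 were higher and 2 lower (median log2 change 0.01, 0.04 over all genes). The INK4 target CDK6 rose by 0.54 ± 0.11 (adjusted p = 0.00479) and its partner cyclin D1 (CCND1) by 0.61 ± 0.16 (adjusted p = 0.0214). CDK4, the other INK4 target, was lower by 1.3-fold (-0.38 ± 0.11, adjusted p = 0.043), and cyclin E2 (CCNE2), an activator of CDK2, by 1.95-fold (-0.96 ± 0.17, adjusted p = 0.00189). The members thus moved in both directions.

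Between the young groups, 4 of 11 kinases and cyclins were higher and 2 lower at 3% oxygen (median 0.35, -0.03 over all genes). The mitotic kinase CDK1 was 3.76-fold and cyclin A2 (CCNA2) 3.9-fold higher, CDK2 was 1.96-fold higher, and cyclin D2 (CCND2) was 2.86-fold lower. Between old cells at 3% and senescent cells, again 4 were higher and 2 lower: CDK1 was 5.82-fold and CCNA2 4.76-fold higher, CCND2 2.8-fold and CCND1 2.13-fold lower. Cyclin D2 was low in the groups in which CDKN2A and CDKN2B were low, and CDK1 and CCNA2 were high there.

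Between old and young cells at 3%, CDK1 was higher (0.64 ± 0.13, adjusted p = 0.0302) and CDK4 lower (-0.57 ± 0.11, adjusted p = 0.0223). For the difference between the steps at 20% and 3% oxygen, limma called 0 of the 11, of which 4 had an unadjusted p under 0.05.

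**Figure D5:**
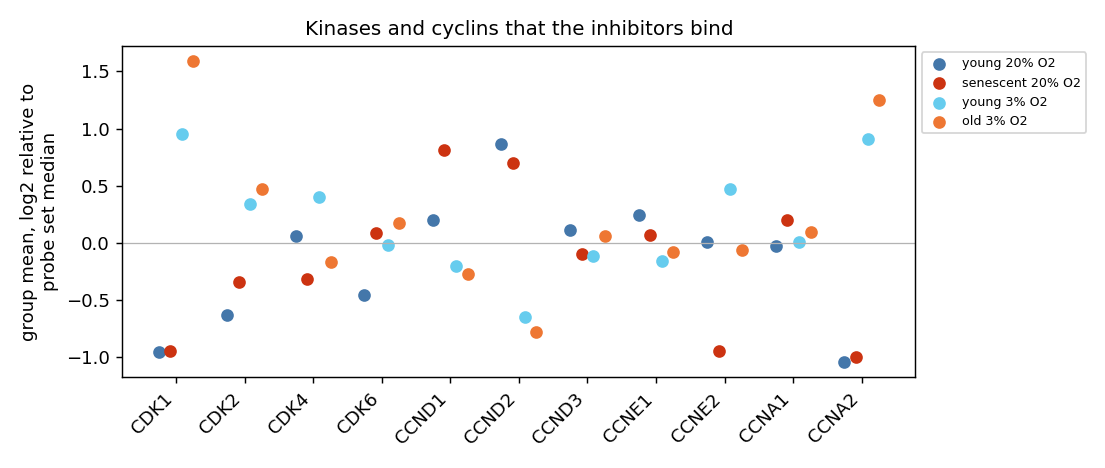
Mean log2 signal relative to the probe set's median (vertical axis) of 11 kinases and cyclins that the inhibitors bind (horizontal axis), with 1 point per group, each the mean of 3 arrays. CDK1 and CCNA2 stand high in both groups at 3% oxygen, CCND2 stands low there, and CCND1 is highest and CCNE2 lowest in senescent cells.

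Downstream of the kinases, 9 of 9 pocket proteins and E2F factors were measured. Senescent cells had 1.84-fold less E2F3 than young cells at 20% (-0.88 ± 0.16, adjusted p = 0.00269), the 1 gene called there. That was 11.1% of the list, no more than the 12.5% of all genes called. Between the young groups 3 were higher at 3% and 1 lower: E2F1 was 2.03-fold higher, RBL1 (p107) 1.3-fold and RB1 1.28-fold higher, and E2F3 was 1.72-fold lower. RB1, RBL1 and TFDP1 were higher in old cells at 3% than in senescent cells, by 1.29-fold, 1.64-fold and 1.42-fold, and 0 of the list were lower.

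Of the 15 genes of the p53 axis that acts on CDKN1A, 13 had a value. KLF4, a partner of p53 at the CDKN1A promoter, was the 1 gene called between senescent and young cells at 20%, and it was lower (1.66-fold, -0.73 ± 0.16, adjusted p = 0.00737). The list's median there was -0.04, against 0.04 over all genes and 1.76 for CDKN1A. The kinase CHEK1 was 1.82-fold higher in young cells at 3% than at 20% and 2.36-fold higher in old than in senescent cells, and KLF4 was 1.64-fold lower between the young groups. CHEK1 was thus high where the proliferation genes were high. The share of the list called was 7.7% in senescent against young cells at 20% (12.5% of all genes). It was 15.4% between the young groups (11.8% of all genes) and 7.7% between old and senescent cells (11% of all genes). These shares are near or below those over all genes.

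Regulators of the INK4 locus were measured for 20 of 24 genes. In senescent against young cells at 20%, 6 were lower and 2 higher (median -0.16, 0.04 over all genes). ID1 was 4.25-fold lower (-2.09 ± 0.28, adjusted p = 0.000296) and ID3 2.69-fold lower, both antagonists of the E proteins that activate the p16 promoter, and EZH2, the methyltransferase of Polycomb complex PRC2, was 2.14-fold lower. CBX7, a PRC1 subunit that represses the locus, was 1.71-fold higher (0.78 ± 0.20, adjusted p = 0.0215). Repressors of CDKN2A moved both ways while the CDKN2A mean was 1.38-fold higher, and their part in that rise was not tested.

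Between the young groups 4 of the 20 were higher at 3% and 2 lower, with EZH2 2.79-fold higher, its partner EED 1.49-fold higher, and JUNB, an activator of p16 transcription, 1.88-fold and the T-box repressor TBX2 1.68-fold lower. Old cells at 3% had 6 of the 20 higher than senescent cells and 1 lower: ID1 was 7.53-fold, EZH2 5.27-fold, ID3 4.68-fold and TBX3 1.59-fold higher. From young to old cells at 3%, CBX7 and ID3 were called higher, by 1.83-fold and 1.54-fold. The step of ID1 at 20% differed from that at 3% by -3.20 ± 0.39 (adjusted p = 0.00034) and that of ID3 by -2.05 ± 0.20 (adjusted p = 5.29e-05).

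Among genes for the turnover and transcription of CDKN1B, 13 of 14 had a value. CKS1B, the cofactor with which the SKP2 ligase recognises p27, was 4-fold higher in young cells at 3% than at 20% (2.00 ± 0.12, adjusted p = 3.06e-07) and 3.72-fold higher in old than in senescent cells. RBX1, a subunit of the same ligase, was 1.56-fold higher between the young groups. FOXO4, a factor of the family that activates CDKN1B transcription, was the 1 gene called in senescent against young cells at 20% (1.51-fold higher, 0.59 ± 0.17, adjusted p = 0.0354). That was 7.7% of the list, against 12.5% of all genes. The share called was 15.4% between the young groups (11.8% of all genes) and 7.7% between old and senescent cells (11% of all genes). These shares are near or below those over all genes.

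Of 18 TGF-beta and MYC inputs to CDKN2B and CDKN1A, 16 had a value. In senescent against young cells at 20%, 2 were higher and 3 lower (median -0.17, 0.04 over all genes): the MYC antagonist MXI1 rose 5.63-fold and the ligand TGFB2 1.95-fold, while SMAD7, the inhibitory SMAD, fell 3.17-fold and the receptor TGFBR1 1.54-fold. Between the young groups, MXI1 was 3.96-fold higher at 3%, and TGFBR2, SMAD7 and MXD1 were lower by 1.71-fold, 1.54-fold and 1.47-fold, and 4 of the 16 were lower in all. Between old and young cells at 3%, limma called 0 of the 16, with 4 at an unadjusted p under 0.05.

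Compared with senescent cells, old cells at 3% had 3.26-fold more SMAD7, 1.54-fold more SKIL, a corepressor of SMAD proteins, 1.91-fold less TGFB2, and 1.54-fold less MYC, the factor that represses CDKN2B and CDKN1A. RNA of MYC and of CDKN2B was lower in old than in senescent cells, and a part of MYC in the CDKN2B difference was not tested.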

How the data were processed

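Values of 12 arrays were taken from the deposited table of log2 signal, which the authors made with RMA (version not stated), per the submitters' processing notes. No source names the base; it is taken to be 2, as RMA gives. Every probe set is centred on its median over the 12 arrays (largest absolute median 5e-07), so levels of different probe sets and signal over background could not be compared; the number of arrays limits the precision. Of 54675 probe sets, 62 are controls, 41091 name 1 gene, 1801 several and 11721 none; the last 2 kinds entered no gene mean. Names came from the platform annotation and were updated by Entrez identifier (41037 matched), and the mean per gene gave 19775 genes.

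A model of the 4 groups was fitted in R 4.3.3 by lmFit and eBayes of limma 3.58.1, over gene means and, separately, over 54613 probe sets. Two-sided p-values were adjusted within a comparison by the Benjamini-Hochberg method over all genes or all probe sets, and called under 0.05; the adjusted p of every gene in the text is limma's. The interaction is senescent minus young at 20% oxygen less old minus young at 3%. The fit was tested on simulated data. Genes named are the inhibitors, the 3 genes most like each over the arrays, and up to 4 called members per list and comparison with the largest change, beside marker genes. The members and lists were chosen with earlier results of these data known.

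Alternatives were the probe set with the largest SD, no _x_at probe sets, each probe set on its own, quantile normalization, median centring, 2 groups alone, array weights, robust eBayes, a replicate block, a filter on flat genes, a threshold of 0.01 and leaving out each array; after seeing the data, covariates for RNA quality and the array-wide factor were added. Quantile normalization was applied to the values as centred, so it evened out the spread of differences from the median and not of signals. The labels do not say what replicate numbers mean. Deviations of same-numbered arrays correlated over 0.1 in all 3 pairs of senescent and old cells (0.129, 0.519 and 0.669) and in no other 2 groups, so a replicate block in these 2 groups alone was added. No arrays were duplicates. Raw array files were not used.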

Additional observations from a re-analysis of the deposited data

Results flagged for a closer look

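The step from young to senescent cells at 20% oxygen and the step from young to old cells at 3% oxygen differed for CDKN1A, by limma's interaction term, by 1.394 on the log2 scale (SE 0.16, adjusted p = 0.000161 for the gene, and adjusted p = 0.000411 for its 1 probe set 202284_s_at among all probe sets). All 3 senescent arrays were above all young arrays at 20%, by a mean of 1.76, and all 3 old arrays were above all young arrays at 3%, by a mean of 0.37.

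For CDKN2A the same term was 1.076 on probe set 207039_at (SE 0.23, adjusted p = 0.0181), with a rise of 0.81 at 20% and a change of -0.26 at 3%, where the old and young arrays overlapped. It was 0.90 on 209644_x_at (adjusted p = 0.196), -0.13 on 211156_at (adjusted p = 0.778) and 0.61 for the gene mean (adjusted p = 0.0765).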

How the results depend on the processing

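No called value changed direction under any alternative run. Some runs could not have changed it, since they leave the log2 change as it was. These include robust eBayes, the filter on flat genes, the threshold of 0.01 and the array-wide factor. CDKN1A kept every call of the report in all alternatives. The number of the 6 genes called moved as follows. The interaction called 2 genes in place of 1 (CDKN1A, then with CDKN2A) with the probe set of largest SD, each probe set on its own, quantile normalization, array quality weights and the array-wide factor, and 1 to 2 with 1 array left out. Old against young cells at 3% called 4 in place of 0 with the array-wide factor, and 0 to 0 with 1 array left out. Senescent against young cells at 20% called 1 in place of 3 with the replicate number as a replicate block and at a threshold of 0.01, and 1 to 4 with 1 array left out. With that block CDKN2A had an adjusted p of 0.0658 and CDKN2B of 0.0723; it changed no other call of the genes. Senescent cells against young cells at 3% called 5 in place of 3 with the array-wide factor, and young cells at 3% against 20% called 1 in place of 3 at a threshold of 0.01, and 1 to 3 with 1 array left out. Old against senescent cells called 3 to 4 with 1 array left out. Smaller changes were these. Old against senescent cells called 4 with the block in these 2 groups alone, and CDKN1B was also called there with array weights or either covariate. In senescent against young cells at 20%, CDKN2A was lost without the _x_at probe set (adjusted p = 0.055). CDKN2B was lost there after quantile normalization (0.453), with the 2 groups alone (0.0624) and with the filter on flat genes (0.0796). Array quality weights called CDKN1A lower in young cells at 3% than at 20% (-0.33, adjusted p = 0.018) and CDKN1B higher in senescent than young cells at 20% (0.47, adjusted p = 0.0003).

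Counts over all genes moved by more than 1.5 times in these cases. With array weights, 2684 genes were called for the interaction in place of 1273, 4137 for old against senescent cells in place of 2176, 5167 for old against young cells at 20% in place of 2622, and 6203 for senescent against young cells at 20% in place of 2474. With the array-wide factor, 2684 were called for the interaction, 2457 for old against young cells at 3% in place of 344, 4801 for senescent against young cells at 3% in place of 2157, and 4439 between the young groups in place of 2333. Old against young cells at 3% gave 124 with the 2 groups alone, 187 to 423 with 1 array left out, and 162 at a threshold of 0.01; there the other comparisons gave 624 to 1684. The causes were not tested.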

Other observations

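Antisense RNAs of the INK4 locus were looked up after the values of CDKN2A and CDKN2B were seen. CDKN2B-AS1 (ANRIL), the long noncoding RNA that overlaps CDKN2B, averaged 0.01 in young and -0.02 in senescent cells at 20% oxygen, and 0.02 in young and -0.17 in old cells at 3%, with SDs of 0.03 to 0.16. CDKN2A-AS1 averaged 0.01, 0.01, -0.16 and 0.17 in the same groups, with SDs of 0.09 to 0.25. Limma called 0 comparisons of either RNA, with adjusted p between 0.352 and 0.998, and 0 had an unadjusted p under 0.05. The lowest adjusted p was that of CDKN2A-AS1 between old and young cells at 3% (0.33 ± 0.15, limma's unadjusted p = 0.0504), which does not show that the groups were alike.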
